A study of Homo sapiens with 8 samples.

Results

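WNT4, TNFSF11, PRLR and ID4 are 4 genes tied to the action of progesterone on the mammary gland, and their loci were examined for binding of the progesterone receptor (PR) and the glucocorticoid receptor (GR) in T47D cells, an established human breast cancer line. Binding was mapped by ChIP-seq, in which DNA held by a protein is recovered with an antibody and sequenced, and stretches of piled-up reads are called as peaks. The members were the called ChIP-seq peaks with at least 1 bp within 50 kb of the hg19 gene bodies. These lie at chr1:22443798-22470462 for WNT4, chr13:43136872-43182149 for TNFSF11, chr5:35048861-35230794 for PRLR and chr6:19837601-19842431 for ID4. The windows held 71 of the 93493 peaks used from the 8 lists of the series.

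In the mammary gland progesterone acts first on luminal cells that carry PR, and these cells pass the signal on to neighbouring cells through secreted factors. WNT4 is a secreted Wnt ligand, and TNFSF11 encodes RANKL, a ligand of the tumour necrosis factor family. In the mouse, both are known as paracrine mediators of progesterone. PRLR is the receptor for prolactin, the pituitary hormone that drives alveolar development together with progesterone, and ID4 is a helix-loop-helix protein that lacks a DNA-binding region and blocks the basic helix-loop-helix factors with which it pairs.

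PR was precipitated from A1-2 cells, a T47D derivative that carries PR and GR per the design text, and from T47D MTVL WT cells, which the labels call the control line. In both lines PR was taken after 60 min of 10 nM R5020, a synthetic progestin, and without hormone. GR was precipitated with a mix of 2 antibodies from A1-2 cells alone, after 60 min of 10 nM dexamethasone (Dex), a synthetic glucocorticoid, after 60 min of 10 nM R5020, and without hormone. No GR library of MTVL cells was analysed here. Input DNA of A1-2 cells was the eighth library, and all cells had been grown in charcoal-treated serum and then serum-starved. Each condition had 1 library, so differences between conditions could not be checked against replicates, and none was tested. The lists are of called peaks, so that the receptors' binding was measured and the expression of the genes was not.

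The lists differed in length, from 28262 PR peaks in A1-2 cells and 43070 in MTVL cells after R5020 to 18415 GR peaks after Dex, 1185 GR peaks after R5020 and between 219 and 630 in the untreated lists. The read depth behind these lists was not known, and deeper libraries give longer lists. Each peak carries the authors' own score, which starts at 100 and crowds at 3100, with 659 PR peaks of A1-2 cells and 2021 of MTVL cells at 3100 or more. From 3100 up it does not rank peaks. It was used to rank peaks within a list, and a rank is given as the percentage of the list that scored at least as high, so that a low percentage marks a strong peak. Ranks in lists of different length are set side by side as descriptions and show no change between libraries.

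PR was called at the start of the hg19 gene body of TNFSF11 and of PRLR in both lines after R5020. At TNFSF11 the peaks that covered the gene start lay at chr13:43136752-43137230 in A1-2 cells and at chr13:43136615-43137356 in MTVL cells. At PRLR they lay at chr5:35230187-35231051 in A1-2 cells and at chr5:35230239-35231083 in MTVL cells. The RefSeq bases just before these starts, taken from GRCh38.p14 and not aligned to the hg19 peaks, are shown because receptor peaks cover the starts of both genes. Capitals mark GAACA or its reverse complement TGTTC, the core of the hormone response half-site AGAACA that GR and PR share. RefSeq places the TNFSF11 bases at chr13:42562486-42562735 on the plus strand and the PRLR bases at chr5:35230488-35230737 on the minus strand.
TNFSF11: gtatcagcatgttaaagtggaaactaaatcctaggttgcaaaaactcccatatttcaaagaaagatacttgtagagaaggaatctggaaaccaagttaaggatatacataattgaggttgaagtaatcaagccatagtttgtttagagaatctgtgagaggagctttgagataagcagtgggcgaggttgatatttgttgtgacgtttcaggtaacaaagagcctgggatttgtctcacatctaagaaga
PRLR: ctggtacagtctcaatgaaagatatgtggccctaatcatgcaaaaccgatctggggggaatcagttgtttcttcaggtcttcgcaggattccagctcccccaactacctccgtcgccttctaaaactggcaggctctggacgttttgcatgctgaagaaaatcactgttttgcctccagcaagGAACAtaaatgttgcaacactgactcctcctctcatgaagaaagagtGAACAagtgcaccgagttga

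In these 250 bases the PRLR promoter held 2 matches to the core and the TNFSF11 promoter held 0, on either strand. Of 35116 RefSeq promoters cut to the same length, 30.6% held at least 1 match. The half-site AGAACA or TGTTCT, which contains the core, was in 12.4% of them and in neither of the promoters shown. The palindrome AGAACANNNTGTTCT was in 0.00285% of all promoters and the looser GNACANNNTGTNC in 0.327%, and neither was in the promoters shown. RefSeq lists a second start for both genes, 11.4 kb from the first for TNFSF11 and 112 kb from the first for PRLR. Peaks were not placed against the second starts, since no coordinates were carried between builds. In GRCh38 the second TNFSF11 start lies downstream of the first on the plus strand. In hg19 no peak was called in the TNFSF11 gene body beyond those that cover its start. The 250 bases before the second PRLR start held 1 half-site and 2 cores, and those before the second TNFSF11 start held 0 of either. Motifs in the peaks away from the starts were not searched, since no hg19 sequence was used here.

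Binding near the genes was called after hormone and not without it. The windows held 24 PR peaks after R5020 in A1-2 cells, against 0 without hormone. In MTVL cells they held 32 PR peaks after R5020, against 0 without hormone. GR in A1-2 cells had 14 peaks after Dex and 1 after R5020, against 0 without hormone. The A1-2 input list also had 0 peaks there, and no peak near the genes was lost to the rule that left out peaks at input peaks. The untreated lists were short throughout the genome, so an untreated count of 0 in these windows does not set these loci apart from others. The nearest input peak lay 209.1 kb from PRLR, and the nearest untreated peak was a PR peak of MTVL cells 245.7 kb from PRLR.

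PRLR accounted for most of the binding. Its window of 282 kb held 18 PR peaks in A1-2 cells, 22 in MTVL cells and 10 GR peaks after Dex. TNFSF11 had 3 PR peaks in A1-2 cells, 5 in MTVL cells and 1 GR peak after Dex. ID4 had 2, 3 and 2 in the same lists, and WNT4 had 1, 2 and 1. Per Mb of window, PRLR held 63.8 PR peaks of A1-2 cells, 78.0 of MTVL cells and 35.5 GR peaks after Dex. The whole lists averaged 9.32, 14.2 and 6.07 per Mb over a span of 3032.7 Mb that includes gene deserts and gaps. The windows of the other genes together held 15.9, 26.5 and 10.6 per Mb, and WNT4 by itself held 7.89, 15.8 and 7.89, close to the average of each list.

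Overlapping peaks of the 7 receptor lists merged into 33 sites, of which 23 lay near PRLR, 5 near TNFSF11, 3 near ID4 and 2 near WNT4. PR in both lines and GR after Dex were called at 13 sites, including the site that also had GR after R5020. PR in both lines without GR was called at 10 sites, PR in MTVL cells alone at 9 and PR in A1-2 cells alone at 1. The PR lists were also cut by score to the length of the GR Dex list. Each line then had 21 PR peaks near the genes, and 17 of them were called in the other line (81.0%). By gene, A1-2 and MTVL cells then had 16 and 16 at PRLR, 2 and 4 at TNFSF11, 2 and 1 at ID4, and 1 and 0 at WNT4. The same share of the whole lists at this length was not computed, and what made the numbers unequal was not tested. In the uncut lists all 13 sites with GR had PR in both lines. After the cut this no longer held for the site upstream of WNT4 and the one upstream of ID4. Their PR peaks of MTVL cells were among those cut. Of the whole GR Dex list, 63.3% of the peaks lay at PR peaks of both lines, also uncut. Among the sites, 21 lay inside a gene body, 2 covered a gene start, 7 lay upstream and 3 downstream.

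**Figure D1:**
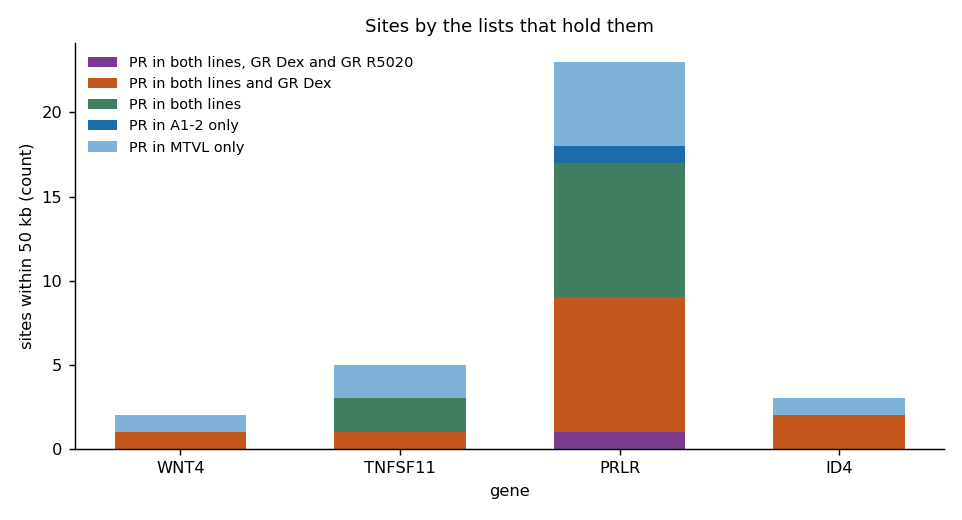
Number of merged sites (y axis) within 50 kb of each gene (x axis), coloured by the lists that hold a peak at the site. PRLR has 23 of the 33 sites, and the sites with PR in MTVL cells only are spread over all 4 genes.

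WNT4, the Wnt ligand, had a single site near its start that was called for PR in A1-2 cells, for PR in MTVL cells and for GR after Dex. It spanned chr1:22471624-22472307, with its near edge 1.16 kb upstream of the gene start. The peak was weak in each list. Its score was 183 for PR in A1-2 cells, where 62.9% of the list scored at least as high, and 186 for PR in MTVL cells, where 69.4% did. For GR after Dex the score was 134, at 73.7% of the list. The other site, at chr1:22395112-22395541, was a PR peak of MTVL cells with a score of 124, at 88.6% of the list. It lay downstream, 74.9 kb from the gene start, on the side where the RefSeq table for GRCh38 places CDC42, a small GTPase gene. No site lay inside the WNT4 gene body, and at a score of at least 200 WNT4 had 0 peaks in each list.

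TNFSF11, the RANKL gene, had all 5 of its sites upstream of the gene or at its start, and no peak of any list lay further into the gene body or in the 50 kb beyond it. The site 8.99 kb upstream, at chr13:43127070-43128702, was the strongest of the locus. Its PR score was 1123 in A1-2 cells, at 12.0% of the list, and it stood at 3100 in MTVL cells, where 4.69% of the list scored at least as high. This was the TNFSF11 site at which GR was called after Dex, with a score of 139 at 71.4% of the list, which a score of at least 200 would leave out. At the gene start the PR score was 505 in A1-2 cells, at 27.1% of the list, and 1198 in MTVL cells, at 17.3%. No GR peak was called at the gene start in any of the GR lists.

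Further upstream of TNFSF11 the PR lists of the cell lines parted. The site 25.2 kb upstream, at chr13:43111284-43112112, had the lowest score of the locus in A1-2 cells, 142 at 76.1% of the list, and the second highest in MTVL cells, 2146 at 8.69%. The site 31.7 kb upstream, at chr13:43104858-43105388, was called in MTVL cells with a score of 1697, at 11.6% of the list, and was not called in A1-2 cells. The same held for the site 37.5 kb upstream, at chr13:43099049-43099724, with a score of 386 at 43.4%. The site 31.7 kb upstream had the highest score of the 9 MTVL-only sites and was singled out after its value was seen. Of the 5010 MTVL PR peaks that scored at least as high anywhere in the genome, 155 (3.09%) had no A1-2 PR peak. With 1 library per line and unknown depth, a difference between the lines cannot be told apart from one between the libraries, and the copy number of the locus in the lines was not analysed here.

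**Figure D2:**
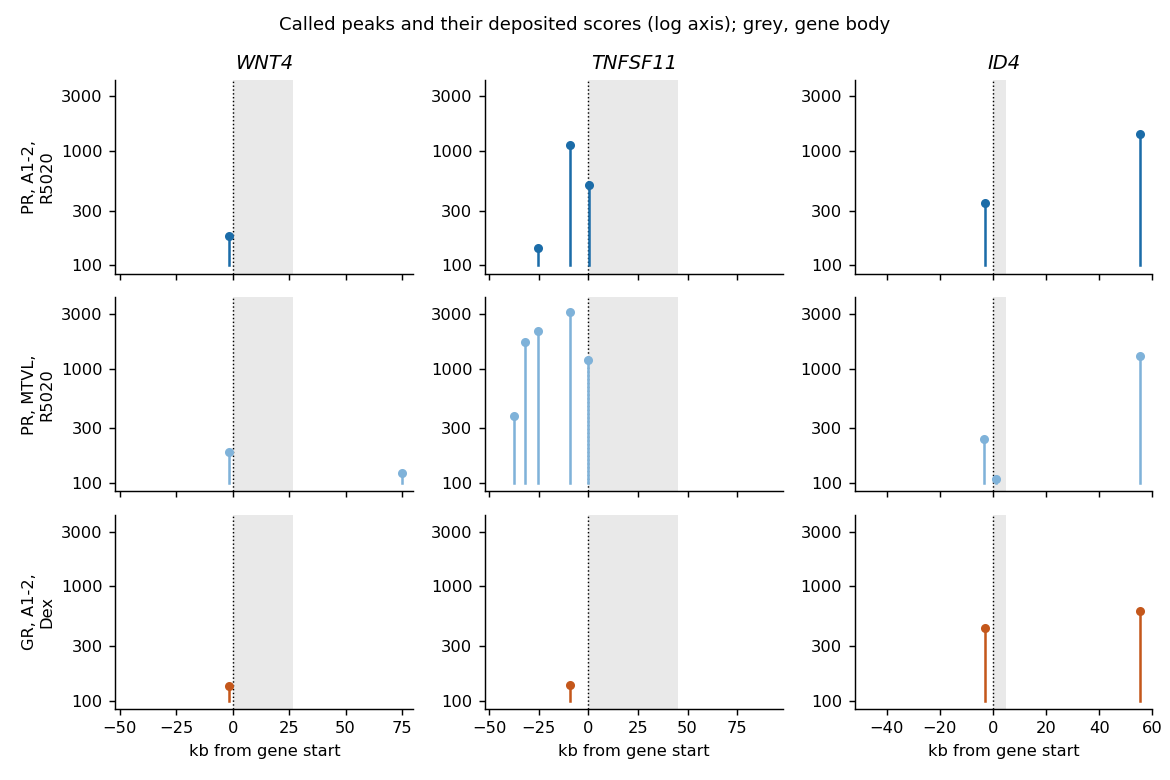
Called peaks near WNT4, TNFSF11 and ID4 (columns) for PR in A1-2 cells after R5020, PR in MTVL cells after R5020 and GR in A1-2 cells after Dex (rows). The x axis is the distance of the peak midpoint from the gene start in kb, negative upstream, the y axis is the deposited score on a log axis, and the gene body is grey. The TNFSF11 peaks all lie at or before the gene start, with 3 in A1-2 cells, 5 in MTVL cells and 1 for GR.

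PRLR, the prolactin receptor gene, carried receptor sites along the whole gene body of 182 kb, and they were densest towards its start. The 40 kb from the gene start inwards held 11 of the 23 sites, with PR peaks at 10 of them in A1-2 cells and at 11 in MTVL cells, and GR peaks after Dex at 6. The next 40 kb held 5 sites. Between 80 and 120 kb from the start there were 3 sites, all without GR. The 3 sites beyond 120 kb had PR in both lines, and 2 of them had GR after Dex. The furthest, 204 kb from the start, lay downstream of the gene. The RefSeq table for GRCh38 lists AGXT2 within 50 kb of PRLR, and which gene this site serves was not measured.

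The site whose near edge lay 24.4 kb inside PRLR, at chr5:35205234-35206399, was called in 4 lists and was the highest-scoring PRLR site for PR in A1-2 cells and for GR. Its PR score was 3100 in A1-2 cells, at 2.33% of the list, and 3100 in MTVL cells, at 4.69%, the value at which scores pile up in both lists. Its GR score after Dex was 2889.5, and 0.527% of the GR Dex list scored at least as high. It was also the 1 site of the 33 with a GR peak after R5020, at chr5:35205564-35206399, with a score of 263 at 46.5% of that list. Near the 4 genes GR had 14 peaks after Dex, or 0.0760% of its list, and 1 peak after R5020, or 0.0844%. A share that rests on 1 peak cannot show whether the split followed the lengths of the lists, and this was not tested. The R5020 peak lay at a GR Dex peak, as did 43.9% of the whole GR R5020 list.

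The site 58.1 kb inside PRLR, at chr5:35171836-35173522, was the site chosen by the score of PR in MTVL cells, which was 3171, in the range where scores do not rank peaks. In A1-2 cells its PR score was 2773, at 2.94% of the list. GR after Dex had 2 peaks under this single PR peak, with scores of 1068 and 103, the stronger at 5.23% of the list. The site 2.64 kb inside the gene, at chr5:35227486-35228813, was singled out after its values were seen, because its PR score in MTVL cells stood at 3100. Its PR score was 2617 in A1-2 cells, at 3.36% of the list, and its GR score after Dex was 884, at 7.30%. At the PRLR start the PR score was 603 in A1-2 cells, at 22.7% of the list, and 1469 in MTVL cells, at 13.8%. GR after Dex was called there as well, with a score of 192 at 50.3% of its list, which a score of at least 200 would leave out.

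**Figure D3:**
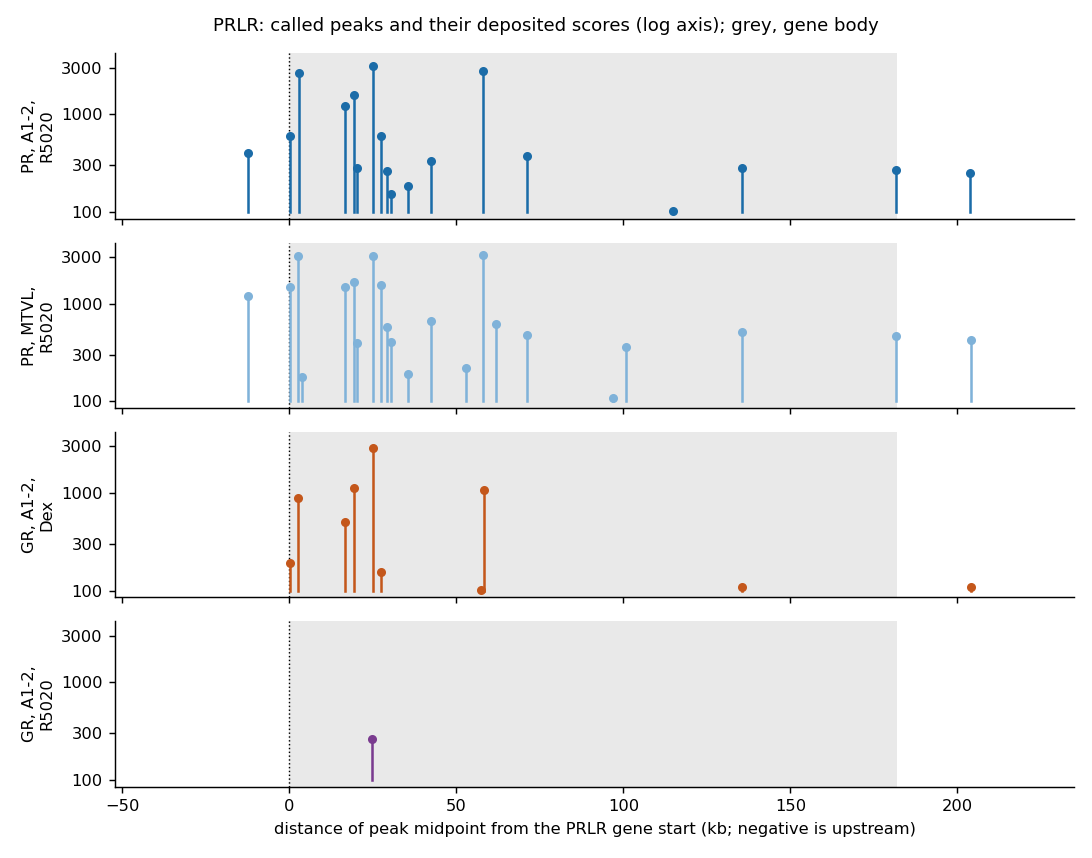
Called peaks near PRLR for PR in A1-2 cells and in MTVL cells after R5020, and for GR in A1-2 cells after Dex and after R5020 (panels from top to bottom). The x axis is the distance of the peak midpoint from the gene start in kb, negative upstream, the y axis is the deposited score on a log axis, and the gene body is grey. The 4 lists coincide at the site whose near edge is 24.4 kb inside the gene, and the taller GR peaks after Dex stand where the PR peaks are tall.

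GR after Dex lay at the stronger PR peaks of PRLR. Of the 18 PRLR peaks of PR in A1-2 cells, the 9 at a GR Dex peak had scores from 251 to 3100 with a median of 1227, and the 9 others had scores from 101 to 398 with a median of 268. Over the whole A1-2 PR list the medians were 452 and 172. In MTVL cells the 9 PRLR peaks at a GR Dex peak of A1-2 cells had scores from 421 to 3171 with a median of 1540, and the 13 others had scores from 108 to 1199 with a median of 401. The whole MTVL list had medians of 776 and 244. The direction at PRLR was thus that of the whole lists.

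The PRLR sites called in 1 PR list had lower median scores than the shared ones, as over the whole MTVL list. The A1-2-only site, at chr5:35115551-35116077, had a score of 101, and 98.9% of the list scored at least as high. The 5 MTVL-only sites had scores of 621, 361, 221, 176 and 108, with a median of 221. The 17 MTVL peaks that were also called in A1-2 cells had a median of 662, with 189 as the lowest. Over the whole MTVL list the medians were 186 for peaks without an A1-2 PR peak and 623 for those with one. The MTVL-only site of highest score lay 61.8 kb inside the gene, at chr5:35168697-35169338, at 30.7% of its list. These sites were named after their values were seen.

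ID4, the helix-loop-helix inhibitor, had 3 sites. The site 3.16 kb upstream of its start, at chr6:19834036-19834845, was called for PR in both lines and for GR after Dex. Its PR score was 353 in A1-2 cells, at 36.9% of the list, and 242 in MTVL cells, at 59.0%, while its GR score of 430 stood at 19.2%. A peak inside the gene body, at chr6:19838572-19839323, was called for PR in MTVL cells alone, with a score of 108 at 95.6% of the list. The third site, at chr6:19892317-19893169, had the highest PR scores of the locus, 1418 in A1-2 cells at 9.02% of the list and 1294 in MTVL cells at 16.0%, with a GR score of 603 at 12.5%. It lay 54.7 kb from the gene start, on the edge of the window with 115 bp inside it, and by its midpoint it would not have counted as near ID4. Just outside the window the next sites were a PR peak of A1-2 cells 70.3 kb from the gene body with a score of 164 and one of MTVL cells 70.2 kb away with a score of 377.

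How far the receptors and the lines shared the sites was set beside the same share of each whole list. Intervals are exact (Clopper-Pearson) 95% intervals, which cover counting error only and take peaks of 1 locus as independent, although most come from PRLR. Of the 14 GR Dex peaks near the genes, 14 lay at a PR peak of A1-2 cells (100%, 76.8 to 100), against 73.8% of the whole GR list. The 14 also lay at PR peaks of MTVL cells, against 69.3% of the whole list, and thus at PR peaks of both lines, against 63.3%. These whole-list shares lay below 76.8%, the lower end of an interval that takes the peaks as independent. Whether the loci differ from the list was not tested. Of the 14, 10 came from PRLR, and when midpoints within 200 bp were asked for, 11 of the 14 lay at A1-2 PR peaks (78.6%, 49.2 to 95.3). The share of the whole list under this stricter rule was not computed, and the 73.8% is for an overlap of at least 1 bp. Of the 24 PR peaks of A1-2 cells near the genes, 13 lay at a GR Dex peak (54.2%, 32.8 to 74.4), and the 48.2% of the whole list was inside this interval. In MTVL cells 13 of 32 PR peaks did (40.6%, 23.7 to 59.4), against 29.5% of the list, which was also inside the interval.

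Between the lines, 23 of the 24 PR peaks of A1-2 cells near the genes were called in MTVL cells (95.8%, 78.9 to 99.9), against 82.7% of the whole A1-2 list. In the other direction 23 of the 32 PR peaks of MTVL cells were called in A1-2 cells (71.9%, 53.3 to 86.3), against 53.8% of the whole MTVL list. Both background shares were inside the intervals, with 53.8% close to the lower end of 53.3%. Since the intervals take peaks of 1 locus as independent, they cannot decide whether the loci stand apart from the lists. By gene, the MTVL peaks called in A1-2 cells were 17 of 22 at PRLR, 3 of 5 at TNFSF11, 2 of 3 at ID4 and 1 of 2 at WNT4.

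**Figure D4:**
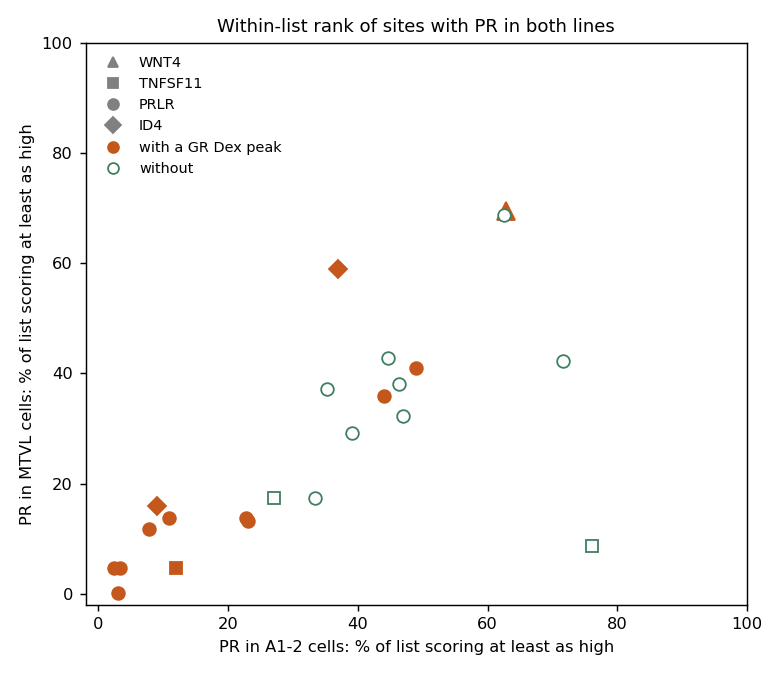
Rank of each of the 23 sites with PR in both lines after R5020, as the percentage of the list scoring at least as high in A1-2 cells (x axis) and in MTVL cells (y axis), with a low value for a strong peak. Symbols stand for genes and filled symbols have a GR Dex peak. The TNFSF11 site 25.2 kb upstream of the gene lies at 76.1% in A1-2 cells and 8.69% in MTVL cells, apart from the other sites, and filled symbols crowd at low percentages. The sites at 4.69% and below in MTVL cells have scores from 3100 up, which do not rank peaks.

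The PR peaks near the genes had a median score of 362 in A1-2 cells, against 244 for the whole list, with 19 of 24 above that median and 5 in the top 10% of the list. In MTVL cells their median was 545, against 313 for the whole list, with 24 of 32 above it and 5 in the top 10%. GR peaks after Dex had a median of 311, against 193, with 7 of 14 above it and 4 in the top 10%, all of them at PRLR. PRLR gave 15 of the 19 PR peaks above the median in A1-2 cells and 18 of the 24 in MTVL cells. PR peaks of WNT4 were below the list's median in both lines, and those of TNFSF11 were above it at 2 of 3 sites in A1-2 cells and at 5 of 5 in MTVL cells. Those of ID4 were above it at 2 of 2 sites in A1-2 cells and at 1 of 3 in MTVL cells.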

How the data were processed

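PR and GR ChIP-seq and input libraries of T47D A1-2 and MTVL WT cells were used, 8 in all. Bowtie 1.1.1, MACS 1.4.2, bedtools and hg19 are named in the submitters' processing notes. No setting or control library is named, and the read depth is not given in the sources used here. The deposited score of each peak, as the authors made it, is read as the scaled negative log10 of p that MACS writes, since it starts at 100 and a threshold of 1e-10 stands in the deposited names.

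Samples were grouped by title. Peaks outside chromosomes 1 to 22 and X, or overlapping an A1-2 input peak, were left out. No MTVL input was used here. A peak was near a gene with at least 1 bp in the window. Peaks sharing at least 1 bp were merged into sites. Strands, second starts, neighbours and promoters are RefSeq's (GRCh38.p14), with no coordinates carried between builds. A planned count near other pathway genes needed an hg19 annotation and was not run. All 4 genes matched RefSeq by symbol.

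The members and settings were chosen with earlier results of these data known. Sites were named by rule: all sites of a gene with at most 10, and for PRLR the highest-scoring one in each hormone list, those with GR after R5020 and those at an end of the gene. Alternatives were a score of at least 200, input peaks kept, windows of 25 and 100 kb, lists of equal length, overlap of 50% of the shorter peak and midpoints within 200 bp. A window rule by midpoint was added after seeing the data. In 28563 simulated peaks, 11588 overlaps planted with a second simulated list were all found, which checks only that the overlap step counts correctly. Python 3.11.15, numpy 2.4.6, scipy 1.17.1 and matplotlib 3.10.9 were used.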

Additional observations from a re-analysis of the deposited data

How the results depend on the processing

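Of 55 alternatives for the counts and shares over the 4 genes, 52 stayed within 1.5 times the count or inside the share's 95% interval, and 3 moved further. Raising the lowest score to 200 left 7 GR Dex peaks in place of 14 and put 100% of 19 A1-2 PR peaks at MTVL PR peaks in place of 95.8%. With the PR R5020 lists of both lines cut by score to the 18415 peaks of the GR Dex list, 21 PR peaks of MTVL cells were left in place of 32, and 21 of A1-2 cells in place of 24. The intervals are wide, so a share could shift much and stay inside. That of A1-2 PR peaks at GR Dex peaks, 54.2%, was 36.8% at a score of at least 200. With lists of equal length it was 61.9%. In the 100 kb window 17 of 18 GR Dex peaks lay at A1-2 PR peaks. Of 92 alternatives for single genes 16 moved. At a score of at least 200 WNT4 had 0 peaks in each list, TNFSF11 had 0 GR Dex peaks and PRLR had 5 in place of 10. GR at WNT4, at TNFSF11 and at the PRLR start thus rests on peaks that this cut leaves out, with scores of 134, 139 and 192. The median score of the whole GR Dex list was 193. Counting a peak by its midpoint, a rule chosen after seeing the data, left ID4 with 1 PR peak in A1-2 cells in place of 2 and with 1 GR peak in place of 2. A window of 100 kb gave WNT4 3 PR peaks in A1-2 cells, 6 in MTVL cells and 3 GR Dex peaks. No paired analysis was possible because each condition had 1 library, and for the same reason no library could be left out of a condition. Depth is unknown, so a peak missing from a list may be a weak peak below the calling threshold.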

Other observations

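Beyond the 50 kb window of WNT4, the nearest peaks on the downstream side scored higher than those inside it. Peaks of PR in A1-2 cells, of PR in MTVL cells and of GR after Dex lay together 75.2 to 75.3 kb from the gene body, at chr1:22367866-22368572 in the MTVL list. Their scores were 509 for PR in A1-2 cells, at 26.9% of the list, 1426 for PR in MTVL cells, at 14.3%, and 178 for GR after Dex, at 54.7%. On that side the RefSeq table for GRCh38 lists CDC42 within 50 kb of WNT4, and which gene these peaks serve was not measured. The nearest GR peak after R5020 lay 179.2 kb from WNT4, with a score of 1829 at 5.91% of its list. Upstream of PRLR, 53.2 kb from the gene body, the next PR peak of MTVL cells had a score of 350, at 46.4% of the list.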
